A study of Mus musculus with 6 samples.

Results

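The 10 genes described here are Nfe2l2, which encodes the transcription factor NRF2, and 9 genes of antioxidant defence: Nqo1, Gclc, Gclm, Srxn1, Txnrd1, Slc7a11, Gpx1, Gpx3 and Sod3. They were picked as a named list with earlier results of these data known, so the number of calls among them is a description. All 10 were found among the 27815 genes of the files by matching Ensembl identifiers to mouse symbols. Polyadenylated RNA of the mouse aorta (C57BL/6) was sequenced in 3 groups of 2 libraries. The ApoE group was ApoE-/- and labelled 16-month. It had eaten chow and carried atherosclerotic calcification, which forms in plaques. The CKD group, mice with chronic kidney disease and calcification of the media, lost both poles of the left kidney at 8 weeks of age and the right kidney after 1 week of recovery. For 4 weeks afterwards these mice ate a diet holding 2% phosphate and drank 0.45% NaCl. Their age is uncertain, since the label also reads 16-month although the protocol implies far younger animals. The Ctrl group was wild type and 2 months old. Age and genotype cannot be told apart between ApoE and Ctrl. Loss of kidney tissue, diet, NaCl water and possibly age cannot be told apart between CKD and Ctrl. Between ApoE and CKD, genotype cannot be told apart from these either. The deletion is in every cell of the ApoE mice and is not restricted to the vessel wall. Whether a library came from 1 animal or from a pool is not stated, so SE and p-values measure the spread between libraries, which may be technical.

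NRF2 is bound by KEAP1 and degraded in unstressed cells. Oxidants and electrophiles release it, and with a small MAF partner it binds antioxidant response elements, short sequences that the repressor BACH1 also binds. Its known targets make and recycle glutathione and thioredoxin, which feed the peroxidases that remove hydrogen peroxide. NRF2 is controlled largely through its protein, which these RNA data do not measure. In arteries the extracellular superoxide dismutase SOD3 is known as a product of smooth muscle cells, and it protects nitric oxide in the wall.

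The libraries held 14.44 to 16.64 M reads, and all 60 values of the 10 genes corresponded to whole numbers of reads within 0.05. Apart from Slc7a11, each gene had between 93 and 28590 reads in a library. Values are FPKM, a read density scaled to exon length and library depth, and a level can be compared between genes on that scale. Differences between groups are given as log2(FPKM + 1), a scale that shrinks the changes of weakly expressed genes, each with the standard error (SE) of the limma model. Genes with a limma adjusted p (Benjamini-Hochberg, over 14074 genes) below 0.05 are said to have risen or fallen. Apoe itself, the deleted gene, stood at 13.2 and 11.4 FPKM in the ApoE libraries, at 1410 and 1447 in the CKD libraries and at 756 and 627 in the Ctrl libraries. Aortic smooth muscle markers were present in all 6 libraries. Mitochondrial genes took 9.67% and 10.9% of reads in ApoE, 9.99% and 5.70% in CKD, and 3.13% and 4.19% in Ctrl. With values scaled without them and the 50 most abundant genes, 8 of the 9 genes tested were again called in ApoE versus Ctrl.

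In ApoE aortas against Ctrl, 5 of the 9 genes tested rose (Nfe2l2, Srxn1, Txnrd1, Gpx1, Gpx3), 3 fell (Nqo1, Gclc, Sod3) and Gclm was not called. That is 8 calls of 9, where limma called 44.1% of all genes in this comparison, 19.8% higher and 24.3% lower. In CKD aortas against Ctrl, 3 of 9 rose (Gclc, Txnrd1, Gpx3) and 6 were not called, against 5.44% of all genes called, 2.23% higher and 3.21% lower. Between ApoE and CKD, 4 of 9 were higher in ApoE (Nfe2l2, Srxn1, Txnrd1, Gpx1) and 3 lower (Nqo1, Gclc, Sod3), against 39.7% of all genes, 18.5% higher and 21.2% lower. Slc7a11 was under the filter of 1 FPKM in at least 2 libraries and is given as values. The median log2 fold change of the 9 genes was 0.97 in ApoE versus Ctrl (all genes -0.07), 0.40 in CKD versus Ctrl (all genes -0.03) and -0.05 between ApoE and CKD (all genes -0.04). The comparisons with Ctrl share its 2 libraries, so they are not independent. The 3 CKD calls became 0 without Ctrl 1, Ctrl 2, ApoE 1 or ApoE 2 and 1 without CKD 1, and the 766 genes called in CKD in all became 0 or 1 without any of those 4 libraries (2097 at an unadjusted p below 0.05 without Ctrl 1 and 2560 without Ctrl 2), 38 without CKD 1 and 2416 without CKD 2.

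**Figure D1:**
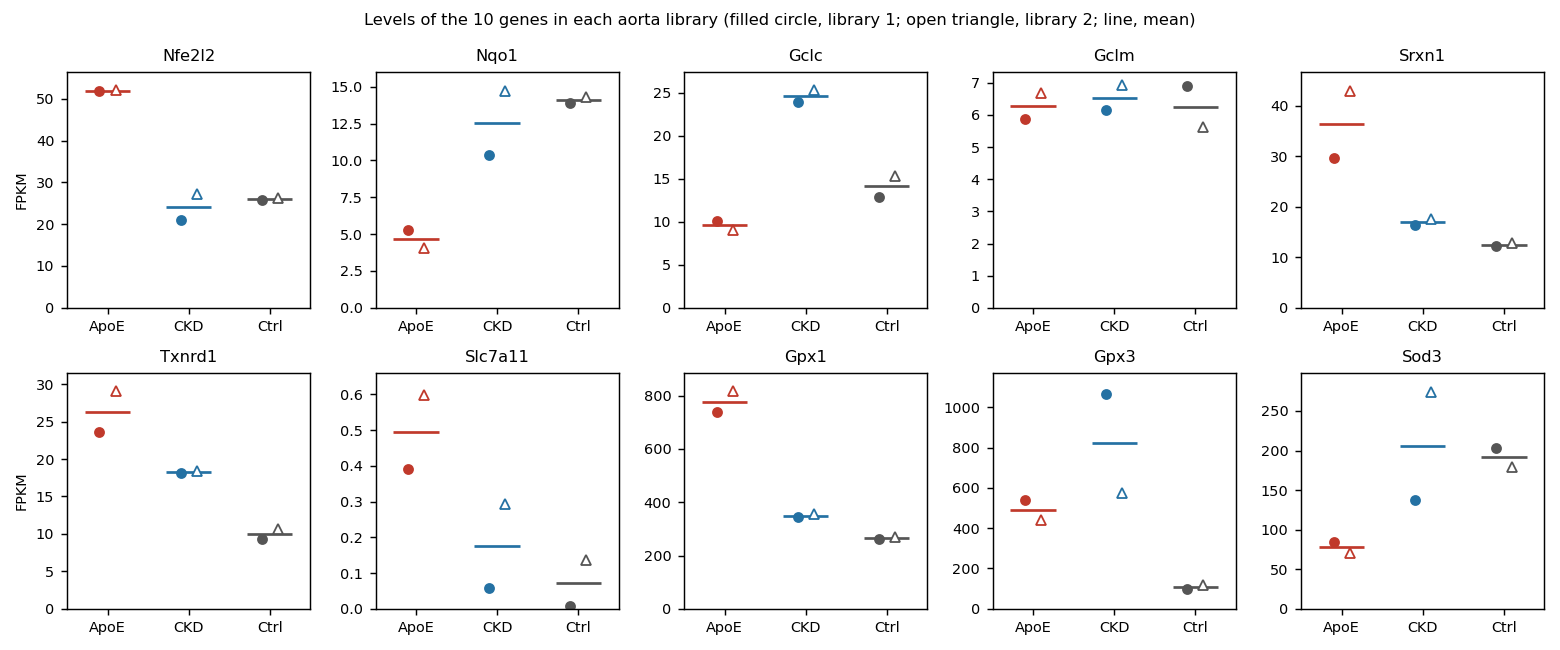
FPKM (vertical axes, linear, from 0) of each of the 10 genes in the ApoE, CKD and Ctrl libraries. Filled circles are library 1, open triangles library 2 and lines the group mean. The 3 groups overlap for Gclm, whereas Nfe2l2 lies near 52 in ApoE and at 27.1 or below in the other groups.

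The factor and its targets did not move as a block. Promoter windows are shown for Srxn1 and Txnrd1, which rose in ApoE, and for Nqo1, which fell, and they were picked with these values known. The searched motif was the core of the antioxidant response element, TGACNNNGC or TGAGNNNGC, on both strands. RefSeq windows of 300 bases (250 before the start site and 50 after, GRCm38.p6) were found for 8 of the 10 genes, 10 windows in all. A match was present in 5 windows, those of Nfe2l2, Gclm, Srxn1, Slc7a11 and the second of 3 start sites of Txnrd1. Of all 32851 windows, 27.8% hold either form, 12.4% the first and 17.6% the second. In the following windows capitals mark matches, and a match is a description of the letters, not of binding.
Srxn1, chr2:152105274-152105573, plus strand: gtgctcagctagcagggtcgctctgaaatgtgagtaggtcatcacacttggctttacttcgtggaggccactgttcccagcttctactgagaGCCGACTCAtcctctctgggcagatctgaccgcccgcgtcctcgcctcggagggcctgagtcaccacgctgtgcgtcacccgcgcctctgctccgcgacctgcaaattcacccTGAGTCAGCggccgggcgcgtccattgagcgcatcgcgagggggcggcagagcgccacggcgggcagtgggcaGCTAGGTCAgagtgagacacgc
Txnrd1, second start site, chr10:82858956-82859255, plus strand: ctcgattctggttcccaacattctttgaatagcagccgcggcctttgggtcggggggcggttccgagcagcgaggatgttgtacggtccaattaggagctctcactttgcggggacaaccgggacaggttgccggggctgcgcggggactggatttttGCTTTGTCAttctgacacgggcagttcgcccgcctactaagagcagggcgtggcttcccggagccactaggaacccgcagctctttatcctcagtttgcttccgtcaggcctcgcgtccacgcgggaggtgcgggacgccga
Nqo1, chr8:107403156-107403455, minus strand: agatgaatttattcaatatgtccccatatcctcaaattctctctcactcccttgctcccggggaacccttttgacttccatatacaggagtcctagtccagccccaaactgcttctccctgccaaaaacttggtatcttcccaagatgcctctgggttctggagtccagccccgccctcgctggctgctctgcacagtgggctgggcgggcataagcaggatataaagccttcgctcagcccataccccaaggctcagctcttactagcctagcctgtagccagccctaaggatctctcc
Srxn1 holds 3 matches, at bases 93, 206 and 279 of the window counted from its 5′ end. The match at base 206, TGAGTCAGC, contains the letters TGAGTCA, which are also the AP-1 motif. Txnrd1 holds a match at base 159 on the minus strand. Nqo1 holds no match in these 300 bases, and sequence further upstream was not searched for any gene. The windows of Gpx1 and Gpx3, which rose in ApoE, and those of the other start sites of Txnrd1 hold none either. Gclm, which was not called, holds a match.

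Nfe2l2 (ENSMUSG00000015839, chromosome 2, 75675513 to 75704641, GRCm38, as for all coordinates here) was high in ApoE. It stood at 51.7 and 52.2 FPKM in ApoE, 20.9 and 27.1 in CKD, and 25.8 and 26.3 in Ctrl. Both ApoE libraries lay above the other 4, and the CKD libraries lay on either side of the Ctrl libraries. The log2 fold change was 0.97 for ApoE versus Ctrl (SE 0.16, limma adjusted p = 0.00547) and -0.12 for CKD versus Ctrl (SE 0.16, limma adjusted p = 0.636). ApoE exceeded CKD by 1.09 (SE 0.16, limma adjusted p = 0.00451).

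Nqo1 (ENSMUSG00000003849, chromosome 8, 107388225 to 107403206), a quinone reductase widely read as a marker of NRF2 activity, went the other way in ApoE. Its level was 5.25 and 4.03 FPKM in ApoE, 10.4 and 14.7 in CKD, and 13.9 and 14.3 in Ctrl. The ApoE libraries were the lowest of the 6, and CKD overlapped Ctrl. The log2 fold change was -1.43 for ApoE versus Ctrl (SE 0.20, limma adjusted p = 0.00294), -0.18 for CKD versus Ctrl (SE 0.20, limma adjusted p = 0.570) and -1.25 between ApoE and CKD (SE 0.20, limma adjusted p = 0.00569).

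Gclc and Gclm encode the catalytic and modifier subunits of glutamate-cysteine ligase, the rate-limiting enzyme of glutathione synthesis. Gclc (ENSMUSG00000032350, chromosome 9, 77754535 to 77794485) stood at 10.1 and 9.06 FPKM in ApoE, 23.9 and 25.3 in CKD, and 12.9 and 15.3 in Ctrl. No group overlapped another, with CKD highest and ApoE lowest. Gclc fell in ApoE (log2 fold change -0.51, SE 0.13, limma adjusted p = 0.0261) and rose in CKD (0.77, SE 0.13, limma adjusted p = 0.0393). The models differed by -1.28 for ApoE versus CKD (SE 0.13, limma adjusted p = 0.00174). Without Ctrl 1, Ctrl 2, ApoE 1 or ApoE 2 neither call against Ctrl was made, and the call in CKD was lost without CKD 1 too, whereas the difference between the models was called without each of the 6 libraries.

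Gclm (ENSMUSG00000028124, chromosome 3, 122245557 to 122270732) stood at 5.88 and 6.67 FPKM in ApoE, 6.15 and 6.92 in CKD, and 6.89 and 5.63 in Ctrl. The 3 groups overlapped. Its log2 fold changes were 0.01 in ApoE versus Ctrl, 0.06 in CKD versus Ctrl and -0.05 between ApoE and CKD (SE 0.14 each, limma adjusted p at least 0.804), and each changed sign with some library left out. The ratio of Gclc to Gclm FPKM was 1.71 and 1.36 in ApoE, 3.89 and 3.65 in CKD, and 1.88 and 2.71 in Ctrl. The ratio was higher in each CKD library than in any ApoE or Ctrl library. Since Gclm was flat, it largely repeats the values of Gclc, and the ratio itself was not tested. Exons of Gclm overlap Gm17494 on the opposite strand and Gm6061 on the same strand, by 296 and 244 bases, and the library kit named in the labels does not mark strand, so its value is uncertain to that extent. The other 9 genes share no exon bases with another annotated gene.

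Slc7a11 (ENSMUSG00000027737, chromosome 3, 49892526 to 50443614) encodes the light chain of the cystine importer that supplies cysteine for glutathione. Its FPKM were low over an exon length of 13922 bases, and its reads were fewest in Ctrl 1 and CKD 1. It had 87 and 124 reads in ApoE, 12 and 59 in CKD, and 2 and 29 in Ctrl. As FPKM these are 0.392 and 0.599 in ApoE, 0.0583 and 0.293 in CKD, and 0.00863 and 0.138 in Ctrl. Both ApoE libraries lay above the other 4, and CKD overlapped Ctrl. The exact Poisson 95% interval of the higher Ctrl library, 0.0922 to 0.198, lay below that of the lower ApoE library, 0.314 to 0.484, and covers counting error only. Tested without a filter, the log2 fold change was 0.48 for ApoE versus Ctrl (SE 0.15, limma adjusted p = 0.0896), which missed the threshold. Its partner chain Slc3a2, by contrast, stood at 53.7 and 58.6 FPKM in ApoE, 52.5 and 53.1 in CKD, and 24.5 and 23.3 in Ctrl.

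Srxn1 and Txnrd1 serve the thioredoxin side: sulfiredoxin repairs overoxidised peroxiredoxins, and thioredoxin reductase recharges thioredoxin with NADPH. Srxn1 (ENSMUSG00000032802, chromosome 2, 152105516 to 152111376) stood at 29.7 and 42.9 FPKM in ApoE, 16.4 and 17.7 in CKD, and 12.1 and 12.8 in Ctrl. The groups did not overlap, in the order ApoE, CKD, Ctrl. Srxn1 rose in ApoE (log2 fold change 1.45, SE 0.19, limma adjusted p = 0.00255) and exceeded CKD by 1.03 (SE 0.19, limma adjusted p = 0.00946). In CKD versus Ctrl it was 0.42 (SE 0.19, limma adjusted p = 0.202), not called.

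Txnrd1 (ENSMUSG00000020250, chromosome 10, 82833951 to 82897712) followed the same order, at 23.6 and 29.0 FPKM in ApoE, 18.2 and 18.4 in CKD, and 9.31 and 10.6 in Ctrl. Again no group overlapped another. It rose in ApoE (log2 fold change 1.31, SE 0.15, limma adjusted p = 0.00144) and in CKD (0.82, SE 0.15, limma adjusted p = 0.0408), and ApoE exceeded CKD by 0.50 (SE 0.15, limma adjusted p = 0.0408). The CKD call was lost without Ctrl 1, Ctrl 2, ApoE 1, ApoE 2 or CKD 1, and the limma adjusted p ranged from 0.0433 to 0.604 over all alternatives. The call between the models was lost when any library other than ApoE 1 was left out (limma adjusted p from 0.0417 to 0.163 over all alternatives).

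Gpx1, Gpx3 and Txnrd1 are selenoproteins, in which an in-frame TGA codon is read as selenocysteine at the active site. The coding sequences of the other 7 genes hold no in-frame TGA. The codon, in capitals, stands within the following 27 bases of the GENCODE M21 transcripts, read 5′ to 3′.
Gpx1, codon 47, chr9:108339451-108339453: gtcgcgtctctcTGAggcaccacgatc
Gpx3, codon 73, chr11:54907256-54907258: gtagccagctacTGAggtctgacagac
Txnrd1, codon 498, chr10:82896037-82896039: cagtctggctgcTGAggttaagcccca
In Txnrd1 it is codon 498 of 499, near the end of the protein, where thioredoxin reductases are known to carry it.

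All 3 of these genes rose in ApoE, where limma called 19.8% of all genes higher. They were picked as part of the named list and do not speak for selenoproteins in general. Gpx1 (ENSMUSG00000063856, chromosome 9, 108338903 to 108340343), the intracellular glutathione peroxidase, stood at 740 and 816 FPKM in ApoE, 345 and 354 in CKD, and 262 and 269 in Ctrl. No group overlapped another, in the order ApoE, CKD, Ctrl. The log2 fold change was 1.55 for ApoE versus Ctrl (SE 0.17, limma adjusted p = 0.00131), 0.40 for CKD versus Ctrl (SE 0.17, limma adjusted p = 0.179) and 1.15 between ApoE and CKD (SE 0.17, limma adjusted p = 0.00448).

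Gpx3 (ENSMUSG00000018339, chromosome 11, 54902453 to 54910377), the secreted peroxidase of plasma, was highest in CKD. It stood at 540 and 443 FPKM in ApoE, 1066 and 575 in CKD, and 99.0 and 117 in Ctrl. No group overlapped another, but the CKD libraries lay far apart. Gpx3 rose in ApoE (log2 fold change 2.18, SE 0.32, limma adjusted p = 0.00392) and in CKD (2.85, SE 0.32, limma adjusted p = 0.0227), the largest change of the 9 genes in either comparison. The models were not called apart (-0.68 for ApoE versus CKD, SE 0.32, limma adjusted p = 0.145), but without CKD 2 they were (-1.12, limma adjusted p = 0.0156), and without CKD 1 the difference was -0.23 (limma adjusted p from 0.0156 to 0.415 over all alternatives). The call in CKD was lost without Ctrl 1, Ctrl 2, ApoE 1 or ApoE 2.

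Gpx1 was the most abundant of the 10 genes in ApoE and Ctrl, and Gpx3 in CKD. The ratio of Gpx3 to Gpx1 FPKM was 0.730 and 0.543 in ApoE, 3.10 and 1.63 in CKD, and 0.378 and 0.434 in Ctrl. Gpx1 and Gpx3 together summed to 1280 and 1259 FPKM in ApoE, 1411 and 930 in CKD, and 361 and 385 in Ctrl. Every library of the models thus held a higher summed level than either Ctrl library.

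Sod3 (ENSMUSG00000072941, chromosome 5, 52363791 to 52371418), the extracellular superoxide dismutase, fell in ApoE. It stood at 84.9 and 70.8 FPKM in ApoE, 138 and 274 in CKD, and 204 and 179 in Ctrl. The ApoE libraries were the lowest of the 6, and the CKD libraries lay on either side of Ctrl. The log2 fold change was -1.29 for ApoE versus Ctrl (SE 0.33, limma adjusted p = 0.0253), 0.02 for CKD versus Ctrl (SE 0.33, limma adjusted p = 0.970) and -1.32 between ApoE and CKD (SE 0.33, limma adjusted p = 0.0260). The ApoE calls were lost without Ctrl 1, Ctrl 2, ApoE 1 or ApoE 2, and with the adipocyte covariate the change against Ctrl was -0.20 (limma adjusted p = 0.744, from 0.0032 to 0.744 over all alternatives). For CKD versus Ctrl the covariate gave 1.27, against 0.02 without it, and no alternative called it (limma adjusted p from 0.136 to 1). The covariate did not overlap between Ctrl and the models, so it cannot be fully separated from the group. Against CKD the ApoE value of Sod3 was -1.81 without CKD 1 and -0.82 without CKD 2. Sod3 was the second most abundant of the 10 genes in Ctrl and the third in ApoE and CKD.

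**Figure D2:**
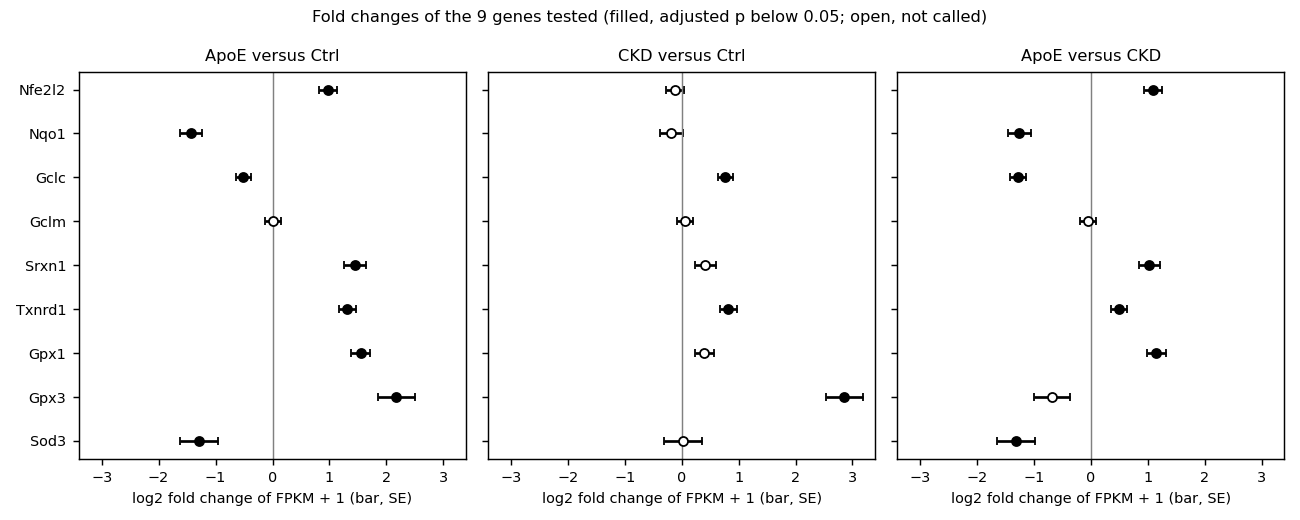
Log2 fold change of FPKM + 1 (horizontal axes) of the 9 genes tested in each comparison. Points are limma estimates, bars are SE, and filled points have an adjusted p below 0.05. Gclc lies at -0.51 in ApoE versus Ctrl and at 0.77 in CKD versus Ctrl.

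The antioxidant genes changed in tissue whose cell markers also differed. For the marker counts below, limma called 19.8% of all genes higher and 24.3% lower in ApoE versus Ctrl. In CKD versus Ctrl these shares were 2.23% and 3.21%. Of 10 macrophage markers, 10 rose in ApoE and 5 in CKD, with summed levels of 7793 and 11897 FPKM in ApoE, 1077 and 1702 in CKD, and 543 and 492 in Ctrl. None of them was at 0. Of 8 smooth muscle markers, 8 fell in ApoE and 1 in CKD, with sums of 643 and 563 FPKM in ApoE, 3404 and 5915 in CKD, and 8305 and 7440 in Ctrl. White adipocyte markers rose for 7 of 10 genes in ApoE and 1 of 10 in CKD, with sums of 3137 and 3316 FPKM in ApoE, 7814 and 2633 in CKD, and 429 and 1012 in Ctrl. CKD 1, the library with the highest adipocyte sum, also had the highest Gpx3 (1066 FPKM). Within CKD it had the lower Sod3 and the lower smooth muscle sum. Sod3 was highest of all 6 libraries in CKD 2 (274 FPKM), whose smooth muscle sum was below that of either Ctrl library. CKD 2 had a lower adipocyte sum than either ApoE library and a higher Gpx3 (575 FPKM against 540 and 443). Within ApoE the library with the higher adipocyte sum had the lower Gpx3, though those sums were close (3137 and 3316 FPKM). These contrasts rest on single libraries, and adipocyte content as a cause of the Gpx3 levels was not tested. In bulk tissue, fewer cells of a type and less RNA per cell cannot be told apart.

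The adipocyte marker level (the mean log2 value of the 10 markers) was 6.45 and 6.56 in ApoE, 7.59 and 6.02 in CKD, and 3.84 and 4.84 in Ctrl. It did not overlap between Ctrl and the models, so a fit with this covariate cannot fully separate it from the group. With this level as a covariate, 2 of the 9 genes were called in ApoE versus Ctrl, Nfe2l2 (1.30, limma adjusted p = 0.0317) and Gpx1 (1.55, limma adjusted p = 0.0237). Over all alternatives the limma adjusted p of Nfe2l2 ranged from 0.00229 to 0.0493. Gpx3 was 1.18 in ApoE (limma adjusted p = 0.0926) and 1.72 in CKD (limma adjusted p = 0.400) under that fit, against 2.18 and 2.85 without it. In ApoE versus Ctrl, Nqo1 was -0.98 (limma adjusted p = 0.106), Gclc -0.57 (limma adjusted p = 0.215), Srxn1 1.47 (limma adjusted p = 0.0628) and Txnrd1 1.20 (limma adjusted p = 0.0501). Those 4 adjusted p-values, those of Gpx3 in both comparisons and that of Gpx1 are the highest over all alternatives, whose lowest lay between 0.0006 and 0.0208. Between ApoE and CKD the same 7 genes were called with the covariate. The part of macrophage and smooth muscle content in these results was not tested.

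**Figure D3:**
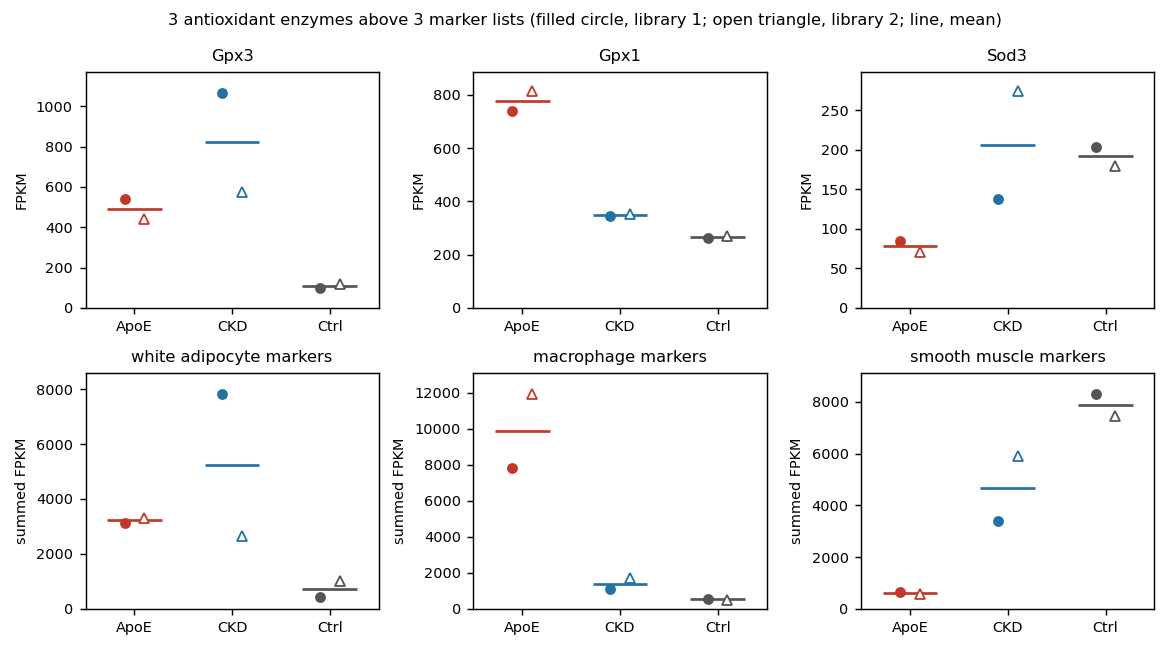
Top, FPKM of Gpx3, Gpx1 and Sod3 by library; bottom, summed FPKM of 10 white adipocyte, 10 macrophage and 8 smooth muscle markers (all axes linear, from 0). Filled circles are library 1, open triangles library 2 and lines the mean. CKD 1 is highest for Gpx3 and for the adipocyte sum, and ApoE is highest for Gpx1 and the macrophage sum.

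Some of the other marker lists also differed between groups. Mesothelial markers rose for 4 of 4 tested genes in CKD and 3 of 4 in ApoE, with sums of 8.43 and 4.61 FPKM in ApoE, 55.2 and 44.4 in CKD, and 0.391 and 0.815 in Ctrl. Of 5 tested cardiomyocyte markers, 2 rose and 2 fell in ApoE and 3 rose in CKD. Their sums were 8.72 and 9.20 FPKM in ApoE, 26.2 and 33.5 in CKD, and 7.59 and 7.61 in Ctrl. Of 7 brown adipocyte markers, 2 rose in ApoE (median log2 fold change 2.02) and 1 in CKD (median 1.82). Brown adipocyte sums were 808 and 858 FPKM in ApoE, 1213 and 419 in CKD, and 102 and 268 in Ctrl. Of 6 endothelial markers, 2 rose and 1 fell in ApoE, and of 6 fibroblast markers 3 fell there. None of either list was called in CKD versus Ctrl. Endothelial and fibroblast sums ranged from 259 to 260 and 519 to 806 FPKM in ApoE, from 160 to 264 and 835 to 1204 in CKD, and from 293 to 346 and 1148 to 1315 in Ctrl. T and B cell sums were 8.33 and 22.6 FPKM in ApoE, 0.991 and 0.821 in CKD, and 3.52 and 30.2 in Ctrl, and erythroid sums 323 and 1080 in ApoE, 161 and 213 in CKD, and 325 and 1248 in Ctrl. Of the kidney tubule list, 2 of 5 genes were in the files, summing to at most 0.910 FPKM. The part of these cells in the changes of the 10 genes was not tested.

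The wider pathway held 92 further genes, 86 of them tested. In ApoE versus Ctrl 37 rose and 16 fell (median log2 fold change 0.31), a share of 61.6% against 44.1% of all genes. In CKD versus Ctrl 4 rose and 1 fell (median 0.28), 5.81% against 5.44%, which is near the background. Between ApoE and CKD 20 were higher in ApoE and 13 lower (median 0.17), 38.4% against 39.7%. The 53 calls of ApoE versus Ctrl became 22 without Ctrl 1, 27 without Ctrl 2, 31 without ApoE 1 and 29 without ApoE 2. By list they ranged over the libraries left out from 1 to 4 regulators, 11 to 19 other targets, 2 to 8 glutathione genes, 5 to 15 thioredoxin and peroxiredoxin genes, 1 to 4 dismutase and catalase genes and 1 to 5 selenoprotein genes. In CKD versus Ctrl limma called no pathway gene without Ctrl 1, Ctrl 2, ApoE 1, ApoE 2 or CKD 1, and 26 without CKD 2. Among the genes named next, Keap1, Mafk, Mafg, Btrc, Sqstm1, Ftl1, Ugdh, Prdx2, Prdx5, Txnip, Pon2, Scly, Selenop, Sephs2 and Pstk share exon bases with another annotated gene, which makes their values less certain.

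**Figure D4:**
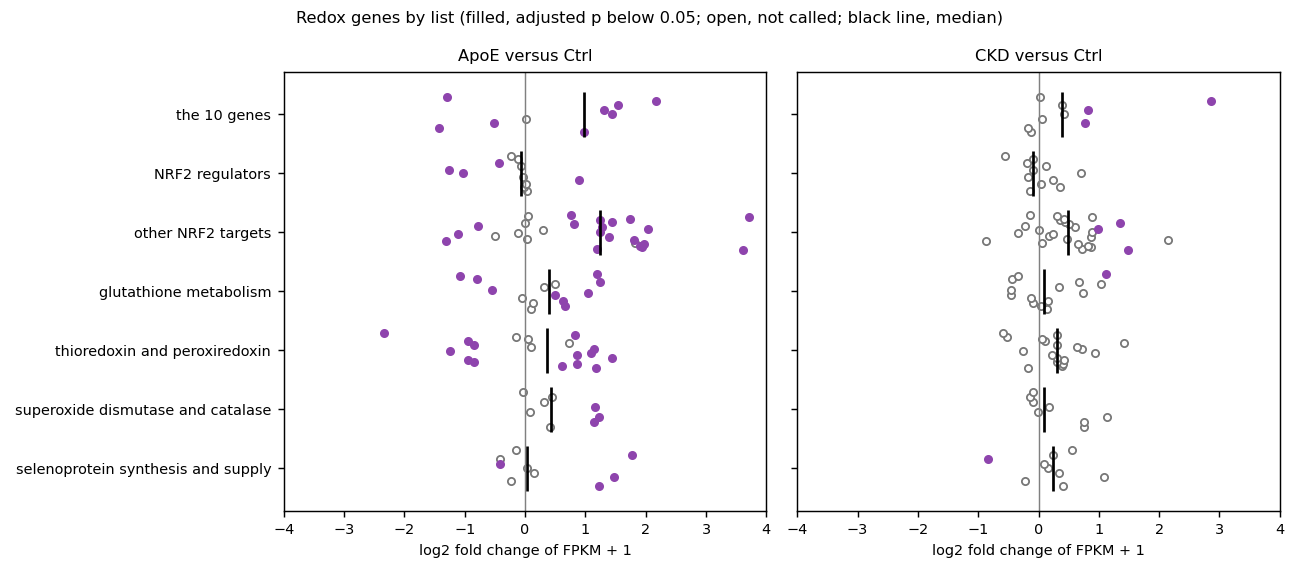
Log2 fold change of FPKM + 1 (horizontal axes) of tested genes by list, for ApoE versus Ctrl and CKD versus Ctrl. Filled points have an adjusted p below 0.05 and black lines are medians. Other NRF2 targets have a median of 1.24 in ApoE and 0.49 in CKD.

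Among 11 tested regulators of NRF2, 1 rose and 3 fell in ApoE, a share of 36.4% called against 44.1% of all genes (median log2 fold change -0.07). Bach1, the repressor, rose (log2 fold change 0.89, limma adjusted p = 0.00967), at 13.4 and 10.8 FPKM in ApoE against 6.16 and 5.91 in Ctrl. The small MAF partners Mafk and Maff fell by 1.27 (limma adjusted p = 0.00184) and by 1.03 (limma adjusted p = 0.0113). Mafg, also a small MAF partner, was not called (-0.03, limma adjusted p = 0.861). Btrc, an adaptor for NRF2 degradation, fell by 0.43 (limma adjusted p = 0.0427). Keap1 stood at 11.0 and 11.2 FPKM in ApoE, 9.28 and 10.0 in CKD, and 11.3 and 10.3 in Ctrl, and was not called in any comparison. No regulator was called in CKD versus Ctrl, where 5.44% of all genes were. Sqstm1, the autophagy adaptor that binds KEAP1 and the most abundant of them, was 0.12 there (limma adjusted p = 0.683). Between ApoE and CKD the log2 difference was -1.73 for Maff and -1.17 for Mafk (limma adjusted p = 0.00259 and 0.00309), and Bach1 was higher in ApoE by 0.65 (limma adjusted p = 0.0302).

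Of 26 other NRF2 targets, 16 rose and 3 fell in ApoE, 73.1% called against 44.1% of all genes (median 1.24). Hmox1, haem oxygenase, stood at 133 and 157 FPKM in ApoE, 28.8 and 36.6 in CKD, and 11.9 and 10.0 in Ctrl. It rose in both models, by 3.61 in ApoE (limma adjusted p = 0.0002) and by 1.49 in CKD (limma adjusted p = 0.0249). The ferritin light chain Ftl1 rose by 3.71 in ApoE (limma adjusted p = 0.000412), but it has near-identical copies, and reads may be split among them. Biliverdin reductase Blvra rose by 1.25 (limma adjusted p = 0.00066) and the aldo-keto reductase Akr1b8 by 2.03 (limma adjusted p = 0.00076). In CKD versus Ctrl 3 targets rose and none fell, 11.5% called against 5.44% of all genes. The other 2 rises in CKD were Ugdh, which makes UDP-glucuronate, at 33.8 and 24.5 FPKM against 11.3 and 9.95 in Ctrl (1.36, limma adjusted p = 0.0289), and Akr1b8 (0.99, limma adjusted p = 0.0429). These 3 CKD calls were lost without Ctrl 1, Ctrl 2, ApoE 1, ApoE 2 or CKD 1, and that of Akr1b8 without CKD 2 too. ApoE exceeded CKD in 10 targets and was lower in 4, 53.8% called against 39.7% of all genes. The 10 included Hmox1 by 2.12, Ftl1 by 2.82 and Blvra by 0.88, and the 4 included the glutathione transferase Gstm2 at -1.36 (limma adjusted p at most 0.00265).

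Of 14 tested genes of glutathione metabolism, 6 rose and 3 fell in ApoE, 64.3% called against 44.1% of all genes (median 0.40). Slc3a2, the partner chain of Slc7a11, rose by 1.20 in ApoE (limma adjusted p = 0.0014) and by 1.11 in CKD (limma adjusted p = 0.0230), the single call of this list in CKD and one lost without any library other than CKD 2. Glrx, glutaredoxin, rose by 1.04 in ApoE (limma adjusted p = 0.00627) and Gsr, glutathione reductase, by 0.66 (limma adjusted p = 0.0141), whereas the endoplasmic reticulum peroxidase Gpx7 fell by 0.79 (limma adjusted p = 0.0161). Chac2 and Gsr were higher in ApoE than in CKD, by 0.95 and 0.63 (limma adjusted p = 0.0067 and 0.0190).

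Of 18 thioredoxin and peroxiredoxin genes, 8 rose and 6 fell in ApoE, 77.8% called against 44.1% of all genes (median 0.36). None was called in CKD versus Ctrl, where 5.44% of all genes were. Prdx1, a cytosolic peroxiredoxin, stood at 203 and 202 FPKM in ApoE, 91.8 and 92.2 in CKD, and 71.5 and 76.4 in Ctrl (1.44 for ApoE versus Ctrl, limma adjusted p = 0.000999). Prdx2 rose by 0.87 (limma adjusted p = 0.00579). The methionine sulfoxide reductase Msrb3 fell to 26.6 and 20.9 FPKM in ApoE, against 125 and 122 in Ctrl (-2.34, limma adjusted p = 0.000799), and the sestrin Sesn3 fell by 0.95 (limma adjusted p = 0.00469). In CKD versus Ctrl the most abundant gene, Txnip, an inhibitor of thioredoxin, was 0.42 (limma adjusted p = 0.287). Between ApoE and CKD 3 were higher in ApoE and 6 lower, among them Prdx1 at 1.13, Msrb3 at -1.75, Txnrd3 at -1.16 and Sesn3 at -1.05 (limma adjusted p at most 0.00452).

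Of 8 dismutase, catalase and related genes, 3 rose and none fell in ApoE, 37.5% called against 44.1% of all genes (median 0.43). The 3 were the copper chaperone Atox1 by 1.15 (limma adjusted p = 0.00297), mitochondrial Sod2 by 1.15 (limma adjusted p = 0.0258) and catalase, Cat, by 1.23 (limma adjusted p = 0.0301). The calls of Sod2 and Cat were lost without Ctrl 1, Ctrl 2, ApoE 1 or ApoE 2. None was called in CKD versus Ctrl, where 5.44% of all genes were. The most abundant, Sod1, stood at 602 and 317 FPKM in CKD against 244 and 275 in Ctrl (0.75, limma adjusted p = 0.179). Atox1 and Pon2 were higher in ApoE than in CKD, by 0.97 and 0.58 (limma adjusted p = 0.00638 and 0.0475). Sod3, which is not one of these 8, fell in ApoE while none of the 8 did. That call was lost in some alternatives, and its log2 fold change was -0.20 with the adipocyte covariate. Nor was a fall particular to Sod3, since 16 of the 86 tested pathway genes fell in ApoE and 37 rose.

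Of 9 tested genes of selenoprotein synthesis and supply, 3 rose and 1 fell in ApoE, 44.4% called against 44.1% of all genes (median 0.03), a share at the background. Scly, the lyase that frees selenium from selenocysteine, stood at 7.79 and 10.8 FPKM in ApoE, 2.44 and 2.60 in CKD, and 1.81 and 2.13 in Ctrl (1.78 for ApoE versus Ctrl, limma adjusted p = 0.000929). Selenop, the selenium carrier of plasma, rose by 1.22 (limma adjusted p = 0.0122) and Sephs2, which makes selenophosphate, by 1.47 (limma adjusted p = 0.0311). The Sephs2 value was -0.063 with the adipocyte covariate, and its call was lost without Ctrl 1, ApoE 1 or ApoE 2. Sepsecs fell by 0.41 (limma adjusted p = 0.0369). In CKD 1 gene was called, Pstk at -0.84 (limma adjusted p = 0.0489), a call lost without every library in turn other than CKD 2. ApoE exceeded CKD in Scly by 1.53 and in Selenop by 0.81, and Sepsecs was at -0.50 (limma adjusted p = 0.00212, 0.0489 and 0.0222).

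The pathway gene with the pattern most like each of the 9 genes was found by the root mean square difference of centred log2 values over the 6 libraries, among 86 genes. Gpx1 lay nearest to Prdx1, at 0.0654, where the median over the 86 genes was 0.651. Gclm lay nearest to Sqstm1 (0.0800), and its median of 0.469 was the lowest of the 9 genes. Srxn1 lay nearest to Blvrb (0.150), Txnrd1 to Prdx5 (0.163), Nfe2l2 to Ptgr1 (0.174) and Gclc to Sesn1 (0.224). Nqo1 and Sod3 both lay nearest to Prdx4, the peroxiredoxin of the endoplasmic reticulum (0.166 and 0.224), and were each other's nearest neighbour among the 9 genes (0.184). Srxn1 and Gpx1 were each other's nearest neighbour too, and closer (0.122). Gpx3 had the largest difference from its nearest gene, Mgst1 at 0.401, but its median over the 86 genes was also the largest, 1.20. Mgst1, a microsomal glutathione transferase, stood at 130 and 131 FPKM in ApoE, 294 and 92.5 in CKD, and 28.2 and 47.3 in Ctrl. As in Gpx3, its highest value was in CKD 1.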

How the data were processed

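Per the labels' protocols, polyadenylated RNA of mouse aorta was sequenced in 6 libraries, 2 each of ApoE, CKD and Ctrl. The submitters' processing notes name TopHat2, HISAT2 2.1.0, Bowtie2 2.2.3 and build GRCm38. What each tool did, and what counted the reads, is not given in the sources used here. The deposited values were taken as FPKM from the values themselves. In 5 files identifiers and values were stacked in 1 column, so that column was recorded as having no single unit, and the deposited values below the library name were read in the order of the identifiers. Multiplied by GENCODE M21 exon length, 89.5% to 89.9% of the values above 0 were whole multiples of 1 read within 0.05, and for all 10 genes they were.

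Symbols matched 27695 of 27815 identifiers. The 14074 genes reaching 1 FPKM in 2 or more libraries were analysed as log2(FPKM + 1) by limma 3.58.1 under R 4.3.3 (trend and robust options), with all 6 libraries in 1 model. FPKM are not counts, so no count model was used. Libraries of 1 group differed by 39.9 (ApoE), 69.0 (CKD) and 18.0 (Ctrl) times the degrees of freedom in a chi-square of recovered reads, so none was a copy. An exact permutation test of 2 against 2 libraries cannot go below p = 0.333. Of the pathway lists, the text names up to 4 called genes with the smallest adjusted p per comparison, or the most abundant where none was called, and any other gene named there was chosen after its values were seen. Members and lists were chosen with earlier results of these data known. Alternatives were another pseudocount, filter, scaling or spread, fewer libraries, a replicate block and an adipocyte covariate.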

Additional observations from a re-analysis of the deposited data

How the results depend on the processing

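Of the 8 calls in ApoE versus Ctrl, Nfe2l2 and Gpx1 were made in all 14 alternatives, and 6 (those 2, Nqo1, Srxn1, Txnrd1 and Gpx3) without each library in turn. Of the 7 between ApoE and CKD, 5 were made in all 14 (Nfe2l2, Nqo1, Gclc, Srxn1, Gpx1). None of the 3 in CKD versus Ctrl was made in all 14. The adipocyte covariate leaves fewer residual degrees of freedom and did not overlap between Ctrl and the models. With this covariate limma called 1814 genes, 2 of the 10 genes and 14 pathway genes in ApoE versus Ctrl (6208, 8 and 53 without it).

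For CKD versus Ctrl limma called 766 genes, 3 of the 10 and 5 pathway genes. These counts were 1, 0 and 0 without the filter, where more genes are tested, and likewise 1, 0 and 0 with only the 4 libraries compared. They were 46, 0 and 0 with the replicate block, and 0, 0 and 0 with the covariate (1225, 2 and 7 at an unadjusted p below 0.05). The block rests on replicate numbers that the titles share. Deviations of replicate 1 correlated at -0.0966 (ApoE and CKD), 0.0457 (ApoE and Ctrl) and -0.233 (CKD and Ctrl) across genes, so the numbers are not taken to pair the libraries. With the CKD numbers crossed, an alternative chosen after seeing the data, the counts were 1230, 3 and 10.

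With 1 library left out in turn, where a lone library is assumed to vary like the other groups, counts ranged from 3021 to 7019 genes, 6 to 8 of the 10 and 22 to 55 pathway genes in ApoE versus Ctrl. In CKD versus Ctrl they ranged from 0 to 2416, 0 to 3 and 0 to 26, and between ApoE and CKD from 2914 to 5045, 5 to 7 and 22 to 37. Signs turned in some results. Scaling without mitochondrial and the 50 most abundant genes gave Gclm -0.062 in ApoE and Sod3 -0.0028 in CKD. The covariate gave Sephs2 -0.063 in ApoE (1.47 without it, a call). In CKD it gave Nfe2l2 0.26 (-0.12 without it), Nqo1 0.34 (-0.18), Sod1 -0.40 (0.75) and Txnip -0.28 (0.42), none of them called, and it moved Sod3 to 1.27 (0.02). With libraries left out, Gclm ranged from -0.12 to 0.13 in ApoE versus Ctrl, from -0.068 to 0.18 in CKD versus Ctrl and from -0.13 to 0.028 in ApoE versus CKD. In CKD versus Ctrl, Nfe2l2 ranged from -0.30 to 0.058, Nqo1 from -0.41 to 0.054, Sod3 from -0.47 to 0.52 and Sqstm1 from -0.0045 to 0.24. Slc7a11 was limited by few reads in Ctrl 1 (2 reads) and CKD 1 (12 reads), and less so in ApoE (87 and 124 reads). The cause of the lost calls was not tested.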
